A study of Mus musculus with 2 samples.

Results

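Tuft cells are rare chemosensory epithelial cells, and 9 genes known from them were followed here in 2 mouse prostate tumours: Pou2f3, Gfi1b, Trpm5, Chat, Alox5ap, Ptgs1, Dclk1, Avil and Sh2d6. They were taken by symbol from a table of 27376 genes, and all 9 were found, each in 1 row. Pou2f3 and the textbook tuft genes were chosen with earlier results of these libraries known, so the values below describe the libraries and test nothing.

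The data are RNA sequencing read counts from whole tumour tissue of mice aged 16 months, with 1 library from each genotype, Bcat_Only and Met_Bcat. Per the file headers, the Bcat_Only column carries the allele and driver name Bcat_ex3Plus_PB_Cre, an altered beta-catenin allele together with a PB Cre, whereas the Met_Bcat column names no allele. By the genotype names both tumours share the beta-catenin change and Met_Bcat adds MET, the receptor of hepatocyte growth factor. What MET allele this is, and which promoter drives it, is not stated in the labels. A PB Cre acts where the PB promoter is active, so other cells of the tissue keep their unaltered genes. The libraries held 19301062 and 20117724 reads assigned to genes.

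In background terms, the POU-domain factor Pou2f3 is the factor without which tuft cells do not form in the epithelia studied. A mature tuft cell uses a taste-like cascade in which a G protein and a phospholipase release calcium and open the Trpm5 channel, and it answers with cytokines, eicosanoids and acetylcholine. Pou2f3 is not restricted to tuft cells: it is also made in the suprabasal layers of squamous epithelium, where it was known as Skn-1a. Several of the other genes are shared as well, Alox5ap with white blood cells, Gfi1b with platelet and red cell precursors, Dclk1 with neurons and stroma, and Ptgs1 with platelets and many epithelia.

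The factor POU2F3 belongs to the octamer-binding family, so the promoters of the 9 genes were searched for the octamer. RefSeq sequences on GRCm38.p6, from 250 bases before each gene start to 50 after it, were matched by symbol for 7 of the 9 genes, in 8 promoters; Pou2f3 and Alox5ap had no entry. The octamer ATGCAAAT, read on both strands, was in 0 of the 8 promoters and in 1.74% of 32851 promoters of the same length. Its first 7 letters, ATGCAAA, a shorter motif contained in it and chosen after the first search, were in the promoter of Avil alone and in 4.63% of all promoters. The Avil promoter (GRCm38.p6, chr10:127000459-127000758, plus strand) is shown because it holds this motif at 2 places, in capitals: as TTTGCAT from base 136, on the opposite strand, and as ATGCAAA from base 236.
Avil: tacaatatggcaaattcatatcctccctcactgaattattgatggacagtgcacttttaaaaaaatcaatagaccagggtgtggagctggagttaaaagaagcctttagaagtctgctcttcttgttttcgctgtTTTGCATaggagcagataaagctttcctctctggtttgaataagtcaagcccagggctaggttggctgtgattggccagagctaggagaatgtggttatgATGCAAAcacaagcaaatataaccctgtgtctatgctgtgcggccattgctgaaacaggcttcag
A match of letters is no evidence of binding, and the other promoters only lack these letters in this window.

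The 9 tuft genes did not move together between the libraries. Pou2f3 was 28.1-fold higher in the Met_Bcat library, Alox5ap was 23.7-fold lower, Ptgs1 was nearly level, and the remaining genes lay on both sides at low counts or with small differences. A gene was called when the whole of its 95% exact interval lay beyond 2-fold and its CPM (the usual depth-scaled count, here with TMM factors) averaged 1 or more over the libraries. By this rule 5 of the 9 genes could be judged: 1 was higher, 1 was lower and 3 were neither. Across the 14354 genes judged, 4.42% were higher and 14.6% lower, and these shares are the background for every list count below made by this rule. The median log2 ratio of CPM plus 0.5 was 0.089 over the 9 genes and 0.030 over the 14354 genes, with 5 tuft genes above 0 and 4 below. When every interval that excluded no difference was counted, with no minimum, 3 tuft genes were higher (Pou2f3, Avil and Ptgs1), 3 lower (Alox5ap, Gfi1b and Dclk1) and 3 neither, beside 28.8% higher and 29.8% lower of the 19883 genes with a read. There is 1 library per genotype, so no test between genotypes was possible, no p-value is given, and every interval covers counting error only.

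**Figure D1:**
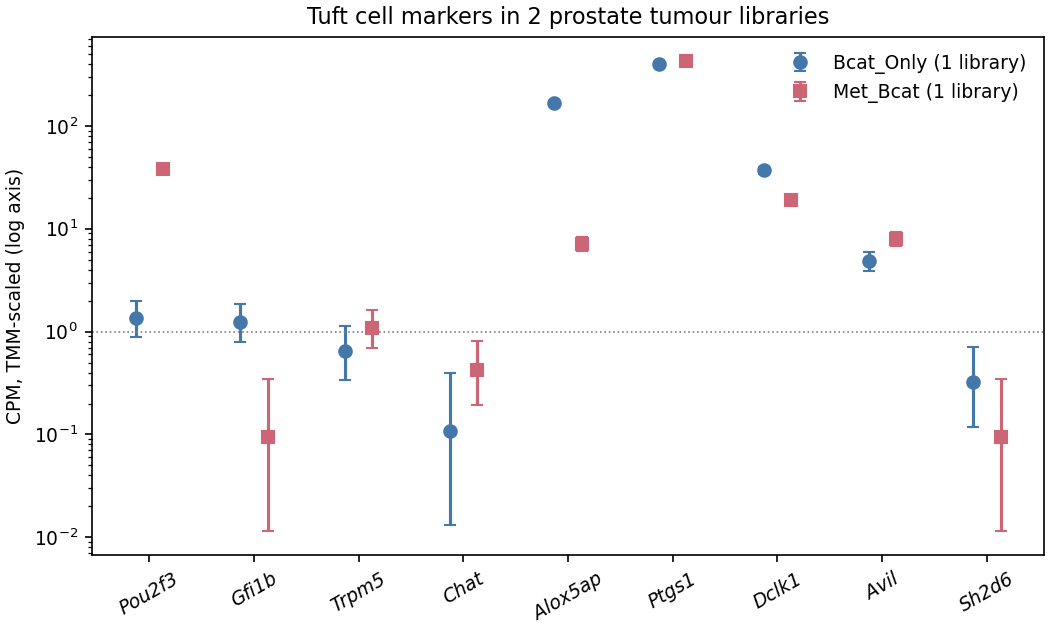
CPM (TMM-scaled, log axis) of the 9 tuft genes in the Bcat_Only library (circles) and the Met_Bcat library (squares), 1 library each, with exact 95% Poisson intervals; the dotted line is 1 CPM. Pou2f3 stands at 1.36 CPM in Bcat_Only and 38.1 in Met_Bcat, Alox5ap at 168 and 7.12, and Gfi1b, Trpm5, Chat and Sh2d6 lie near or below the dotted line in both.

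Among the transcription factors, Pou2f3 and Gfi1b went opposite ways. Pou2f3 (ENSMUSG00000032015, mm9 chr9:42930711-43018452, minus strand) had 25 reads in Bcat_Only, 1.36 CPM (exact Poisson interval 0.878 to 2.0), and 803 reads in Met_Bcat, 38.1 CPM (35.5 to 40.8). The Met_Bcat library was the high one, and the ratio was 28.1-fold with an interval of 18.9 to 43.7. By log2 ratio, 30 of the 14354 genes lay higher, and 99.8% lay lower.

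Gfi1b (ENSMUSG00000026815, mm9 chr2:28464970-28477502) is a zinc-finger repressor of transcription, shared by tuft cells with platelet and red cell precursors. It had 23 reads in Bcat_Only, 1.25 CPM, and 2 reads in Met_Bcat, 0.0949 CPM. Here the Bcat_Only library was the high one, by a ratio of 13.2-fold (3.25 to 115). Its mean was below 1 CPM, so it was not judged by the rule; with no minimum it was lower too, which made 1 tuft gene higher and 2 lower, beside 3.68% and 12.2% of 19883 genes with a read. Markers of platelets and megakaryocytes were lower in the same library, with all 3 of the genes that reached 1 CPM, of 8 listed, called lower, and a summed level of 55.7 CPM in Bcat_Only and 3.42 CPM in Met_Bcat. Of this list Gp9 and Treml1 had only 7 and 5 reads in Bcat_Only and 0 in Met_Bcat, and Pf4, the platelet chemokine, had 842 and 23 reads. The red cell list fell on the same side, with 3 of 4 judged genes, of 8 listed, called lower and 0 higher, and 79.0 CPM against 29.7 CPM. Gata1 was among those at 0 reads in Met_Bcat, but it had only 4 reads in Bcat_Only and its interval held no difference. What part these cells have in the Gfi1b counts was not tested.

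Genes of basal and squamous epithelial cells were mostly higher in Met_Bcat, as Pou2f3 was, though not all of them. Of 11 such genes 8 were called higher in Met_Bcat and 0 lower, beside 4.42% and 14.6% of all genes judged. Their median log2 ratio was 1.82, and their summed level was 299.7 CPM in Bcat_Only and 1339 CPM in Met_Bcat. None of the 11 was at 0 reads in either library. Krt5, a basal keratin, had 2893 and 16066 reads, Krt14, its partner, 1004 and 6273, and Trp63, the p63 factor of basal cells, 566 and 2099. The suprabasal keratin Krt10, named after its values were seen, had 27 and 108 reads, a ratio of 3.50-fold (2.28 to 5.55). The cornified envelope gene Lor, also so named, went the other way, with 110 and 53 reads. It was 2.37-fold lower in Met_Bcat (1.70 to 3.36), short of the rule. The part of these cells in the Pou2f3 counts was not tested.

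The relatives of Pou2f3 were lower or close to level. Pou2f1, the broadly expressed octamer factor, had 1272 and 1236 reads, 1.18-fold lower in Met_Bcat (1.09 to 1.27). Pou2f2, the octamer factor of B cells, had 160 and 30 reads, 6.10-fold lower (4.11 to 9.34), and Pou2af1, the B cell coactivator, 747 and 7 reads, 122-fold lower (59.0 to 305). Per length of exon, Pou2f3 stood at 0.343 RPKM in Bcat_Only, below Pou2f1 at 4.16 and Pou2f2 at 2.55, and at 9.63 RPKM in Met_Bcat, above Pou2f1 at 3.53 and Pou2f2 at 0.418. The B and plasma cell list was lower in the same library, with all 7 genes called lower and 5769 CPM against 18.0 CPM in sum, none at 0 reads; its most counted genes Ighg1, Igj (the J chain) and 2010001M09Rik (Mzb1) had 96733, 7706 and 988 reads in the first library and 34, 329 and 5 in the second. The rows 1810046K07Rik and Gm684, known today as the tuft cell coactivators Pou2af2 and Pou2af3, held few reads. The first had 0 and 4 reads, and the second 33 and 58, a ratio of 1.54-fold (0.985 to 2.43) that did not pass the rule. These 2 names were paired with the rows from background knowledge, not from the table.

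**Figure D2:**
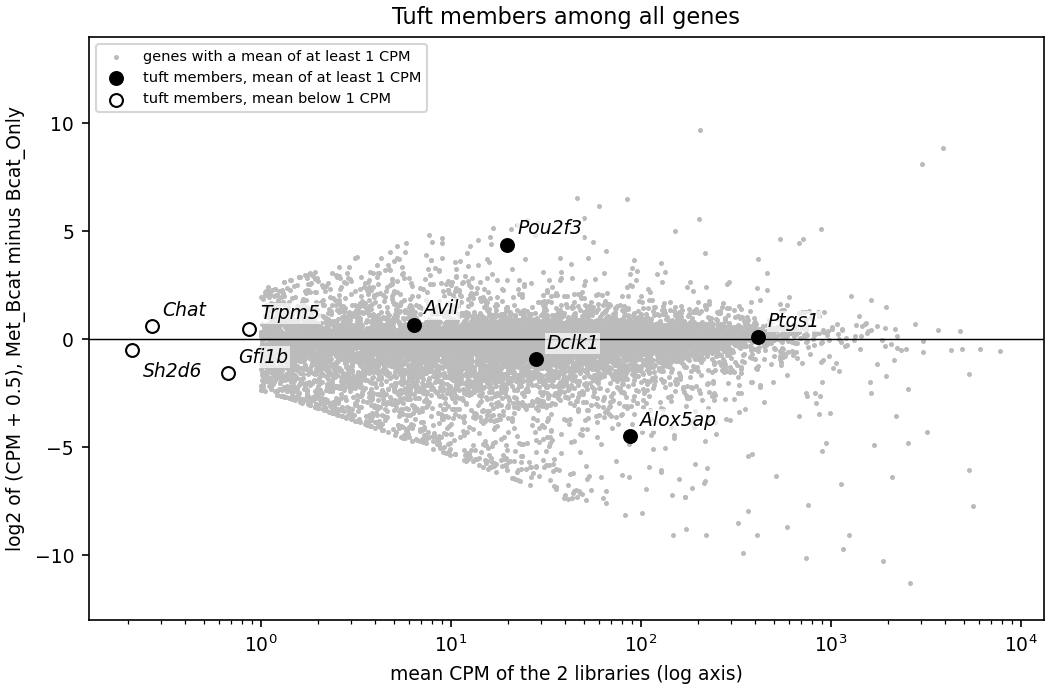
Mean CPM of the libraries (log axis) against the log2 difference of CPM plus 0.5, Met_Bcat minus Bcat_Only, for the 14354 genes averaging 1 CPM or more (grey) and the 9 tuft genes (black, open where the mean is below 1 CPM). Pou2f3 lies near the upper edge at 4.38, Alox5ap at −4.47, and the other tuft genes between −1.56 and 0.67.

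Of the chemosensory and cholinergic genes, Trpm5 and Chat had too few reads for a difference to be seen. Trpm5, the cation channel at the end of the taste cascade (ENSMUSG00000009246, mm9 chr7:150255058-150280547), had 12 reads in Bcat_Only, 0.651 CPM (0.337 to 1.14), and 23 reads in Met_Bcat, 1.09 CPM (0.692 to 1.64). The ratio was 1.68-fold with an interval of 0.80 to 3.69, which holds no difference as well as a 2-fold one. The span of Trpm5, introns included, overlaps that of Tssc4 on the opposite strand over 1845 bases, and Tssc4 had 326 and 467 reads. How much of this overlap is exon in both genes was not measured. No source used here states the strand setting of the counting, so reads in any exon that such a pair shares cannot be assigned with certainty. The related channel Trpm4 had 478 and 553 reads, a ratio of 1.01-fold (0.893 to 1.15).

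Chat, choline acetyltransferase, which makes acetylcholine (ENSMUSG00000021919, mm9 chr14:33221389-33279095), had 2 reads in Bcat_Only and 9 in Met_Bcat, 0.109 CPM and 0.427 CPM. The ratio of 3.93-fold had an interval of 0.814 to 37.4, so no difference was detectable at this depth. Of the 3 other cholinergic genes found, 2 could be judged and both were called lower, beside 14.6% of all genes judged. Slc5a7, the choline transporter, had 57 and 17 reads, 3.84-fold lower (2.20 to 7.03), Bche, butyrylcholinesterase, 38 and 0 reads, at least 14.5-fold lower against a floor of 3 reads per library (the near end of its exact interval lay at 11.2-fold), and Ache, acetylcholinesterase, 24 and 3 reads at a mean below 1 CPM. Schwann cell and nerve markers had 3 of 6 judged genes, of 9 listed, called lower and 0 higher, with 41.8 CPM and 27.1 CPM in sum, and Prph was among those at 0 reads in Met_Bcat. The most counted of them, Isl1, had 214 and 259 reads, Tubb3 had 151 and 236, and Prph 172 and 0. The part of nerve in these counts was not tested.

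The taste cascade beyond Trpm5 was not called on either side: of 12 listed genes 4 reached 1 CPM, and 0 were called higher or lower. Of these 4, Itpr3, the calcium release channel, had 3935 and 4321 reads, 1.04-fold lower with an interval that held no difference, and Plcb2, the taste phospholipase, 236 and 219, 1.23-fold lower (1.02 to 1.49). Ffar3, a short-chain fatty acid receptor, had 29 and 12 reads, 2.76-fold lower (1.37 to 5.95), and Tas1r3, a shared subunit of sweet and umami receptors, 14 and 36, 2.25-fold higher (1.18 to 4.51). Gnat3, the taste G protein gustducin, had 3 and 18 reads, a ratio of 5.24-fold (1.53 to 27.8). Gnb3, a G protein beta subunit, had 3 and 17 reads, 4.95-fold (1.43 to 26.4), both at means below 1 CPM. Sucnr1, the succinate receptor, had 7 and 0 reads, and Gng13, the partner of gustducin, 2 reads in each library. Of the 12 genes, the interval lay above no difference for 3 (Gnat3, Gnb3 and Tas1r3) and below it for 3 (Plcb2, Ffar3 and Sucnr1). By this rule 28.8% of the 19883 genes with a read were higher and 29.8% lower, shares near those of the list. None of the 6 cleared 2-fold at the near end. Since the rule called 0 of this list, the genes in these sentences were named after their values were seen.

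The eicosanoid genes gave the lowest ratio among the 9 genes and the most level one. Alox5ap, the protein that presents arachidonic acid to 5-lipoxygenase for leukotriene synthesis (ENSMUSG00000060063, mm9 chr5:150076634-150099621), had 3102 reads in Bcat_Only, 168 CPM (162 to 174), and 150 reads in Met_Bcat, 7.12 CPM (6.02 to 8.35). The Bcat_Only library was 23.7-fold higher (20.1 to 28.1), and 1.60% of the 14354 genes had a lower log2 ratio. Alox5, the lipoxygenase it serves, was lower too, with 453 and 34 reads, 15.2-fold (10.7 to 22.3), and Pla2g4a, the phospholipase that frees arachidonic acid, with 1700 and 534 reads, 3.64-fold (3.30 to 4.02). Of the 5 other eicosanoid genes listed, 2 were called lower and 0 higher, beside 14.6% and 4.42% of all genes judged.

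White blood cell markers were lower on the same side as Alox5ap. All 9 macrophage genes were called lower, with 2164 CPM in Bcat_Only and 360.4 CPM in Met_Bcat in sum and Cd163 at 0 reads in Met_Bcat; the complement genes C1qa and C1qb had 7086 and 5687 reads in Bcat_Only against 1981 and 1350, and Itgam, an integrin of myeloid cells, 6673 against 443. All 9 neutrophil genes were called lower, with 4822 CPM against 133 CPM and Elane at 0 reads in Met_Bcat; S100a8 had 33454 and 1365 reads, S100a9 32077 and 1022, and Ngp 13460 and 52. Of 8 mast cell and basophil genes 5 could be judged and all 5 were called lower, with 32.0 CPM against 1.90 CPM and Cpa3, Mcpt4 and Fcer1a at 0 reads in Met_Bcat. Their most counted genes were Tpsab1 with 151 and 2 reads, Cpa3 with 141 and 0, and Tpsb2 with 111 and 7. The part of these cells in the Alox5ap counts was not tested. In whole tissue, fewer cells of a type and less RNA per cell cannot be told apart.

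Ptgs1, cyclooxygenase 1, which begins prostaglandin synthesis (ENSMUSG00000047250, mm9 chr2:36085946-36107792), was the most counted of the 9 genes. It had 7351 reads in Bcat_Only, 399 CPM (389.9 to 408.2), and 8947 in Met_Bcat, 425 CPM (416 to 433). The ratio of 1.06-fold (1.03 to 1.10) was far below the rule, and its sign turned to a log2 ratio of −0.303 when libraries were scaled to luminal epithelial markers. Ptgs1 alone held 65.1% of the summed CPM of the 9 genes in Bcat_Only and 85.1% in Met_Bcat, so a sum over the 9 genes mostly reports Ptgs1. Its inducible relative Ptgs2 had 9831 and 2585 reads, 4.35-fold lower in Met_Bcat (4.17 to 4.54).

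Of the cytoskeletal and signalling genes, Dclk1 was lower, Avil higher and Sh2d6 barely counted. Dclk1, a doublecortin-like kinase bound to microtubules (ENSMUSG00000027797, mm9 chr3:55046448-55342986), had 682 reads in Bcat_Only, 37.0 CPM, and 404 in Met_Bcat, 19.2 CPM. It was 1.93-fold lower (1.71 to 2.19), short of the rule, and passed it only when scaled to luminal markers or when any interval excluding no difference was called (37.8% of the 14354 genes were then higher and 36% lower). Fibroblast genes were lower in the same library, all 8 of them by the rule, with 23696 CPM against 915 CPM in sum and none at 0 reads; Col3a1, Col1a1 and Col1a2, fibrillar collagens, had log2 ratios of −6.04, −4.29 and −6.38 for CPM plus 0.5. The part of fibroblasts and nerve in the Dclk1 counts was not tested. Its relative Dclk2 had 50 and 62 reads and Dclk3 15 and 8, and neither difference was detectable at this depth.

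Avil, advillin, an actin-bundling protein of tuft cell microvilli and of sensory neurons (ENSMUSG00000025432, mm9 chr10:126437765-126458050), had 89 reads in Bcat_Only, 4.83 CPM (3.88 to 5.94), and 168 in Met_Bcat, 7.97 CPM (6.81 to 9.27). It was 1.65-fold higher (1.27 to 2.16), short of the rule. Its span, introns included, overlaps that of Tsfm on the opposite strand over 9423 bases, more than the 3398 bases of exon in Avil. Tsfm had 276 and 404 reads. Here too the shared exon was not measured, and reads in it could not be assigned with certainty. Its relative Vil1, villin of brush border microvilli, went the other way, with 2466 and 154 reads, 18.3-fold lower (15.6 to 21.7). Sh2d6, an SH2-domain adaptor (ENSMUSG00000052631, mm9 chr6:72463638-72471628), had 6 and 2 reads, 0.326 CPM and 0.0949 CPM, with an interval for the fold lower of 0.614 to 34.8. Its relative Sh2d7 had 8 and 12 reads. Both were too thinly counted for a difference to be seen.

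Per length of exon, the order of the 9 genes differed between the libraries, with Pou2f3 and Gfi1b each 4 ranks apart and Alox5ap, Dclk1, Chat and Trpm5 each 2. In Bcat_Only, Alox5ap was highest at 191 RPKM (CPM per kilobase of exon, from the deposited exon lengths), then Ptgs1 at 103, Dclk1 at 2.74 and Avil at 1.42. Gfi1b, Pou2f3, Sh2d6, Trpm5 and Chat followed at 0.682, 0.343, 0.187, 0.102 and 0.0386 RPKM, and each of these overlapped the next in its counting interval. In Met_Bcat, Ptgs1 was highest at 109 RPKM, followed by Pou2f3 at 9.63 and Alox5ap at 8.06, whose intervals overlapped. Avil stood at 2.35, Dclk1 at 1.42, Trpm5 at 0.171, Chat at 0.152, Sh2d6 at 0.0546 and Gfi1b at 0.0519, the last 4 overlapping from one to the next. Pou2f3 was therefore 6th of 9 in one library and 2nd in the other, while Trpm5, Chat and Sh2d6 stayed below 0.2 RPKM in both.

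A wider set of textbook tuft genes was also split. Of 44 further genes found, 29 reached 1 CPM, and of these 3 were called higher, 11 lower and 15 neither, beside the background of 4.42% and 14.6%. Their median log2 ratio was −0.62 over the 42 with a read, against −0.018 over the 19883 genes with a read, and −1.01 over the 29, against 0.030 over the 14354. The higher genes were Nrgn, neurogranin, a calmodulin-binding protein, with 15 and 364 reads, 21.2-fold (12.7 to 38.3), Nebl, nebulette, an actin-binding protein, with 282 and 1097 reads, 3.40-fold (2.98 to 3.89), and Cd24a, a surface glycoprotein of many epithelia, with 16899 and 40352 reads, 2.09-fold (2.05 to 2.13).

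Most of the lower genes act in white blood cells as well as tuft cells. Among them were the kinase Bmx, 14.3-fold (7.52 to 30.6), the phospholipase Plcg2, 2.36-fold, the phosphatase Inpp5d, 3.45-fold, the exchange factor Vav1, 3.99-fold, the adaptor Fyb, 4.45-fold, and Lrmp, a membrane protein of lymphoid cells, 3.92-fold. Spib, an ETS factor of tuft and of B and dendritic cells, had 175 and 11 reads, 18.2-fold lower (9.92 to 37.1). Alox5, Pla2g4a and Vil1, described above, were also among the 11. Il25, the cytokine that marks tuft cell output, and Hmx3 had 0 reads in both libraries, which allows up to 0.163 CPM in Bcat_Only and 0.142 CPM in Met_Bcat. Il17rb, the receptor chain for that cytokine, had 273 and 300 reads, 14.8 and 14.2 CPM.

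**Figure D3:**
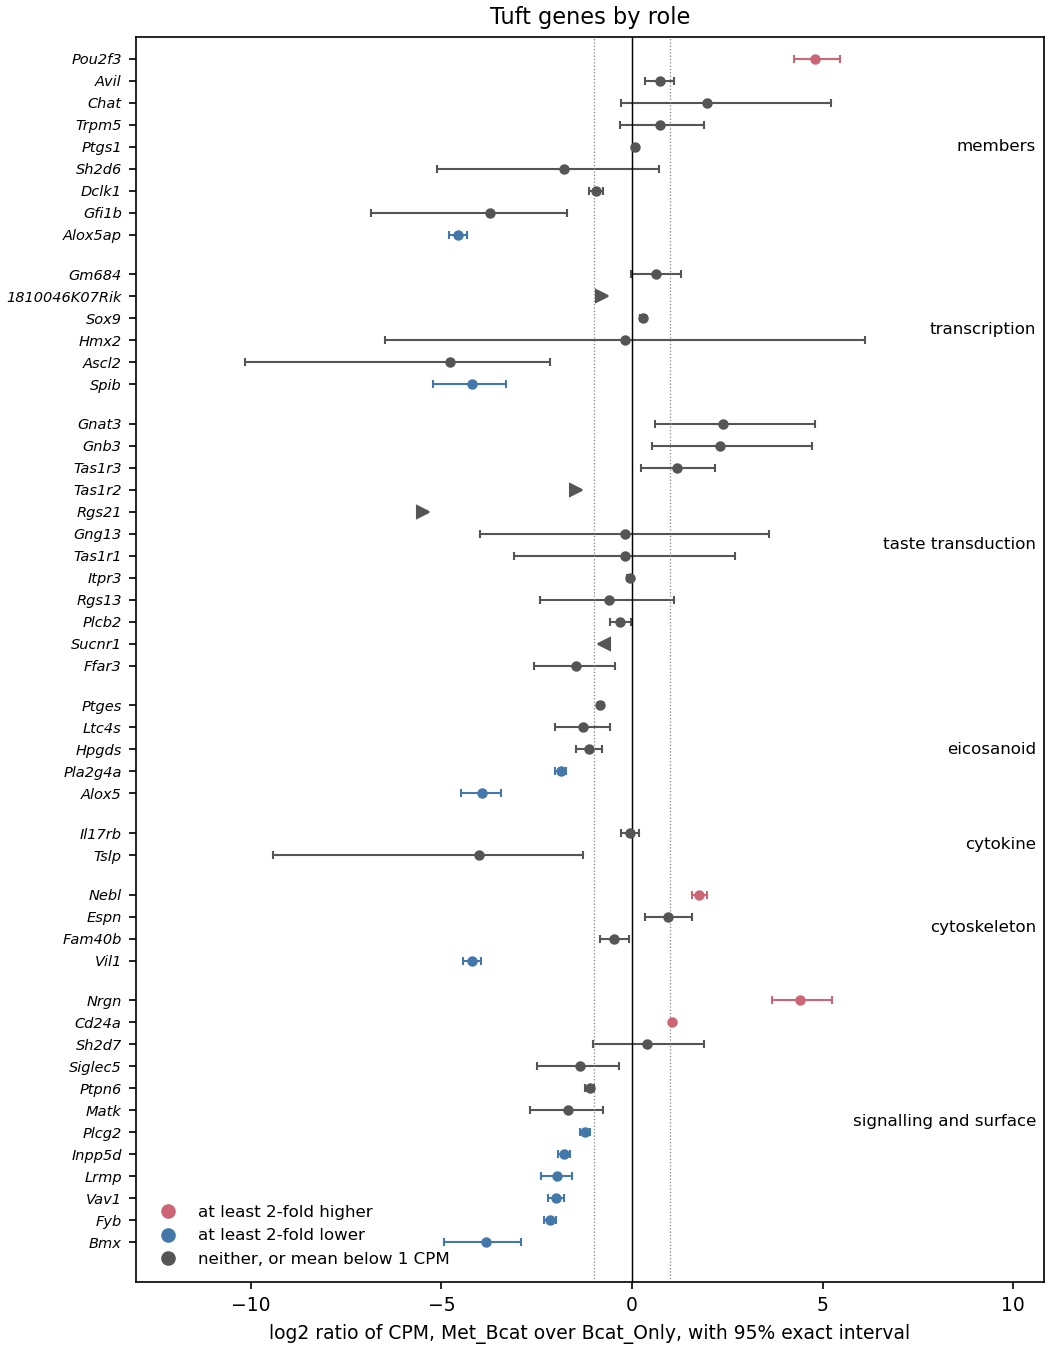
Log2 ratio of CPM, Met_Bcat over Bcat_Only, with its 95% exact interval, for the 9 tuft genes and the further tuft genes with a read and reported here, grouped by role; triangles mark the near interval end of genes with 0 reads in 1 library, and dotted lines mark 2-fold. Pou2f3, Nrgn, Nebl and Cd24a are the called higher genes, while the genes called lower include Alox5ap, Alox5, Spib, Vil1 and signalling genes.

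The epithelial content of the tissue was checked against its markers. Luminal epithelial genes were well counted in both libraries, 4 of 10 called higher in Met_Bcat and 1 lower, with 3292 CPM against 5593 CPM in sum and none at 0 reads. Krt18 had 14898 and 21632 reads, Krt19 10148 and 24910, and Cdh1, E-cadherin, 16400 and 15686. Neuroendocrine markers, from the other rare epithelial cell type of the prostate, were low in both, with 12.2 CPM and 2.75 CPM in sum and all 3 judged genes, of 7 listed, called lower; Neurod1 was at 0 reads in both, and the most counted were Syp with 96 and 14 reads, Chgb with 48 and 8, and Chga with 46 and 10.

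**Figure D4:**
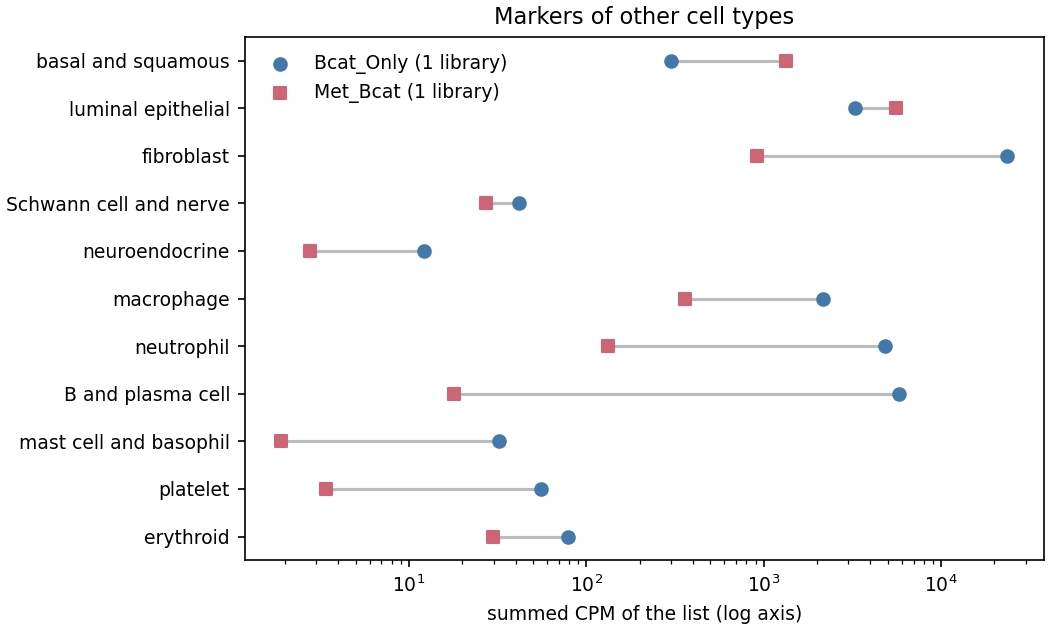
Summed CPM (log axis) of marker lists of other cell types in the Bcat_Only library (circles) and the Met_Bcat library (squares). The basal and squamous list and the luminal list are higher in Met_Bcat, at 1339 and 5593 CPM, and the 9 other lists are lower, from 27.1 against 41.8 CPM for Schwann cell and nerve genes to 18.0 against 5769 CPM for B and plasma cell genes.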

How the data were processed

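Gene-level read counts from prostate tumour tissue of 2 mice, 1 per genotype, were analysed. Per the submitters' processing notes, TopHat2 version 2, HTSeq, edgeR and the build mm9 were used; their settings, strand included, are not stated there. The deposited table holds raw counts, not normalised, and the authors' total exon length per gene. Columns were matched to samples by the sample number that the header and the labels' description share. The library kit was a stranded mRNA kit with single-end sequencing, per the labels' protocols.

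Library sizes were scaled with TMM (edgeR 4.0.16, R 4.3.3). Ratios carry 95% exact (Clopper-Pearson) intervals conditional on a gene's summed reads, and CPM carry exact Poisson intervals, computed with SciPy 1.17.1. A gene was called at 2-fold by the near end of its interval if its mean reached 1 CPM. PCR copies were not separated by molecular identifiers, so intervals and floors (3 reads per library) cover counting error only. The ratio and call functions were tested on simulated data. Of 54 tuft genes listed 49 matched by symbol, 2 by reference gene identifier and 2 by an older name, and 1 was not matched.

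The members and lists were chosen with earlier results of these data known. The genes named are the 9 tuft genes, further tuft genes passing the size rule, listed relatives of the 9, and the 3 most counted genes of each marker list; any other is said to be named after its values were seen or is given as a plain value. A few listed genes enter the list counts but their own values are left out. Alternatives in scaling (total counts, DESeq2 1.42.0 size factors, upper quartile, luminal markers), minimum expression, size rule, pseudocount and summary were computed. With 1 library per genotype, replicates could not be left out in turn.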

Additional observations from a re-analysis of the deposited data

How the results depend on the processing

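With total counts, DESeq2 size factors, upper quartile scaling and the 4-fold rule, 1 of the 9 tuft genes stayed higher (Pou2f3) and 1 lower (Alox5ap). Luminal scaling, no minimum, and a minimum of 0.2 CPM each gave 1 higher and 2 lower, adding Dclk1 in the first and Gfi1b in the others. Among genes averaging 1 CPM or more, calling every interval that excludes no difference gave 3 higher and 2 lower. Gfi1b, below that mean, was not counted there. The same rule called 37.8% of the 14354 genes higher and 36% lower. The further tuft genes numbered 1 higher and 5 lower at 4-fold, a rule for which the share over all genes was not computed. By the same interval rule at 1 CPM or more they numbered 6 higher and 20 lower, beside the same 37.8% and 36%. The remaining settings kept within 1.5 times of 3 and 11. The median log2 ratio of the 9 genes, 0.0893 as reported and equal to the value of Ptgs1, was 0.223 with total counts, 0.16 with upper quartile scaling and 0.278 without Alox5ap, the farthest gene. It turned to −0.303 with luminal scaling, as did Ptgs1 itself (−0.303), and to −0.136 with the mean in place of the median. Luminal scaling moves every log2 ratio taken without a pseudocount by −0.393. With the pseudocount, thinly counted genes moved less, such as Gfi1b from −1.56 to −1.61 and Chat from 0.607 to 0.439. The mean includes Alox5ap at −4.47, and its turn was not tested further. No gene of the 9 other than Ptgs1 changed sign under the 4 scalings and 2 pseudocounts tried. Depth limits Gfi1b, Trpm5, Chat and Sh2d6, each with fewer than 40 reads in all. No paired analysis was possible because each genotype has 1 library.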
